A study of Apis mellifera with 48 samples.

Results

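Reads of 15314 gene identifiers were counted in 48 honey bees (Apis mellifera), each giving 1 library from its mushroom bodies, and 127 identifiers had a lower median in active than in inactive bees of both sexes. They were chosen by their values. For each group of 12 bees the median was taken of the CPM, that is, of each gene's reads scaled to a common total of gene reads (counts per 1000000). A gene was a member if the median of active bees was at most 0.8 times that of inactive bees in workers and in drones, with all 4 medians at least 3 CPM. This floor left 8467 genes, so the members were 127 of 8467. A further 935 genes met the limit in workers only, 327 met it in drones only, and 105 had the mirror pattern, with both ratios at or above the inverse of that limit.

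The mushroom bodies are paired centres of the insect brain, known for their role in memory and in joining input from several senses. Workers are diploid females that forage for the colony, and drones are haploid males that leave the hive on mating flights. Gene expression in the bee brain is known to follow both the time of day and the behavioural state of the bee.

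The series put instinctive and learned reward-related behaviour side by side. The groups were 12 active workers taken at 3 pm as they were about to forage, 12 inactive workers taken at 9 am, 12 active drones taken at 3 pm before flight and 12 inactive drones taken at 9 am. Active bees were recognised by observation and marking. Each library held the polyadenylated RNA of the dissected mushroom bodies of 1 bee. Activity and clock time divide the bees in the same way and cannot be told apart. The bees came from 3 colonies with unrelated, naturally mated queens, and neither age nor strain is given in the sources used here. Active and inactive workers each comprised 5, 5 and 2 bees of colonies 1, 2 and 3. Active drones comprised 2, 2 and 8 bees, and inactive drones 5, 1 and 6.

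Each library also carried a pool number, with 7 pools in all. Pool 7 held active worker 4 alone, and every other pool held bees of all 4 groups. Gene reads per library, in units of 1000000, ran from 6.69 to 27.1. The share of reads outside annotated genes was 28.3% ± 1.44 (SD, n = 12) in active workers and 27.6% ± 2.01 in inactive workers, and 28.8% ± 1.57 in active drones and 27.3% ± 1.66 in inactive drones. The identifiers could not be matched to gene names, so members are given by identifier without a function or a position, and markers of the dissected tissue or of other cell types could not be looked up. In tissue RNA, fewer cells of a type and less RNA per cell cannot be told apart.

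Together the members took a small part of the reads, and that part was lower in active bees. The share of gene reads in the 127 members was 0.733% to 1.02% (median 0.842%) in active workers and 0.961% to 1.60% (median 1.15%) in inactive workers. It was 0.609% to 0.967% (median 0.845%) in active drones and 0.931% to 1.28% (median 1.14%) in inactive drones. In both sexes the ranges overlapped only at their edges. These values follow from the choice of members and carry no test.

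**Figure D1:**
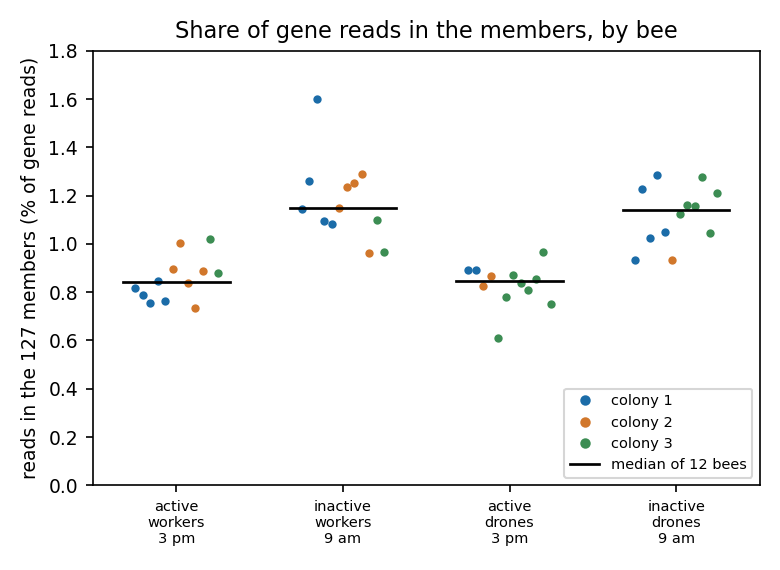
Share of gene reads that fell in the 127 members, in percent, for each of the 48 bees (points, coloured by colony), with a line at the median of 12 bees. Medians are 0.842% in active and 1.15% in inactive workers, and 0.845% in active and 1.14% in inactive drones.

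About as many members had both ratios within 0.7 to 0.8 as did not, namely 63 of 127 (49.6%). The ratio of medians, active over inactive, had a median of 0.728 in workers, with a lowest value of 0.266. In drones its median was 0.741 and its lowest value 0.220. Over all 8467 genes at the floor the median ratio was 0.972 in workers and 0.979 in drones. In 21 members both ratios were at most 0.7. A ratio of at most 0.5 was found for 5 members in workers and 7 in drones. GB43418 and GB43022 were the 2 members at or below 0.5 in both, and GB43022 is named after its values were seen. The median of GB43022 in active workers was 6.50 CPM, against 13.4 CPM in the inactive ones. In active drones it was 4.07 CPM, against 12.0 CPM in the inactive ones.

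**Figure D2:**
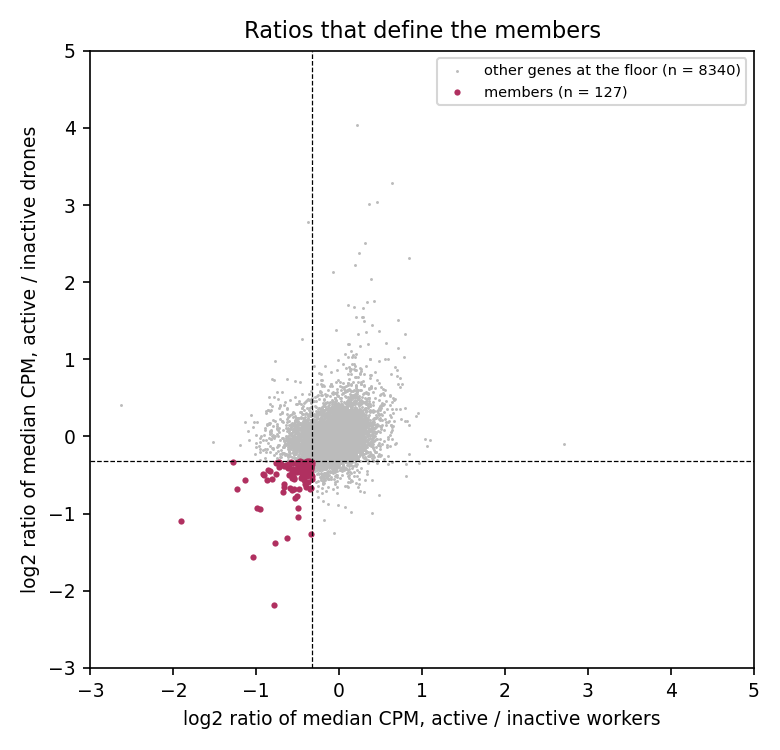
Each point is a gene with all 4 group medians at least 3 CPM. The x axis gives the log2 ratio of the median CPM of active over inactive workers and the y axis the same for drones, with dashed lines at the limit of 0.8; the 127 members fill the lower left corner, and 63 of them have both ratios above 0.7.

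GB51897 lay just inside the limit, with ratios of 0.766 in workers and 0.7998 in drones, as did GB47118, with 0.775 and 0.7996. GB53835 lay just outside, with 0.8003 in workers and 0.746 in drones, as did GB52627, with 0.751 and 0.8005. The place of the limit and not a gap in the values thus sets these 4 genes apart.

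The members were weaker in expression than the genes they were drawn from. The mean of a member's 4 medians ran from 3.70 to 878 CPM, with a median of 14.4 CPM, against 30.5 CPM over all genes at the floor. Members under 10 CPM numbered 40 (31.5%, against 19.7% of the genes at the floor), and those of at least 100 CPM numbered 21 (16.5%, against 22.1%). Weak members had the smaller ratios in workers. The median ratio in workers was 0.695 under 10 CPM, 0.738 from 10 to 100 CPM and 0.757 at 100 CPM or more. In drones the same medians were 0.733, 0.746 and 0.751.

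GB43418 had the lowest mean of both log2 ratios. It stood at 2.92 to 26.9 CPM (median 6.83) in active workers and at 5.99 to 66.7 CPM (median 25.7) in inactive workers. In active drones it stood at 3.32 to 14.6 CPM (median 4.74), and in inactive drones at 4.57 to 31.7 CPM (median 10.2). The groups overlapped in both sexes, with 5 of 12 active bees below all inactive bees in workers and likewise 5 of 12 in drones.

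GB45427 came next. In active drones it was 1.85 to 10.57 CPM (median 4.94), and in inactive drones 10.63 to 34.4 CPM (median 22.5). All 12 active drones thus lay below all 12 inactive drones. GB45427 was the 1 member, and the 1 gene among the 8467 (0.0118%), with this order in drones. In workers 2 genes at the floor (0.0236%) had it, and 0 of them were members. In active workers GB45427 was 2.63 to 28.8 CPM (median 14.05), and in inactive workers 17.8 to 58.0 CPM (median 24.3), with 8 of 12 active workers below all inactive ones. The deviations of GB43418 and GB45427 from their group means moved together, with a Pearson r of 0.77 over 48 bees. The fitted log2 change of GB45427 was -1.06 ± 0.28 (SE) in workers and -1.85 ± 0.30 in drones, and that of GB43418 was -1.22 ± 0.35 in workers and -1.06 ± 0.38 in drones. With edgeR GB43418 was past an adjusted p of 0.05 in neither sex, though at the threshold in workers (edgeR adjusted p = 0.05005). With DESeq2 it was past it in both sexes. In workers it was also past it in edgeR fits with pool (0.0455) or a replicate block (0.0355) as covariate. Its fitted change moved to -0.80 in workers without colony 2, and in drones to -0.41 without colony 1 and -1.98 without colony 3. With edgeR GB45427 was past that threshold in both sexes, but not in workers without colony 1 or colony 2, nor in drones without colony 3. Its fitted change was -1.14 in workers without colony 1 and -0.63 without colony 2. In drones without colony 3 it was -1.85. Those fits had fewer bees. The rule had used the contrasts of active and inactive bees, so these calls describe both genes and support nothing.

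GB50828 was the member with the highest level. It was 439.7 to 1229 CPM (median 815) in active workers and 989 to 1630.0 CPM (median 1194) in inactive workers, and 10 of 12 active workers lay below all inactive ones. In active drones it was 434 to 876 CPM (median 643), and in inactive drones 478 to 1307 CPM (median 860.4). There 1 of 12 active drones lay below the range of inactive ones.

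**Figure D3:**
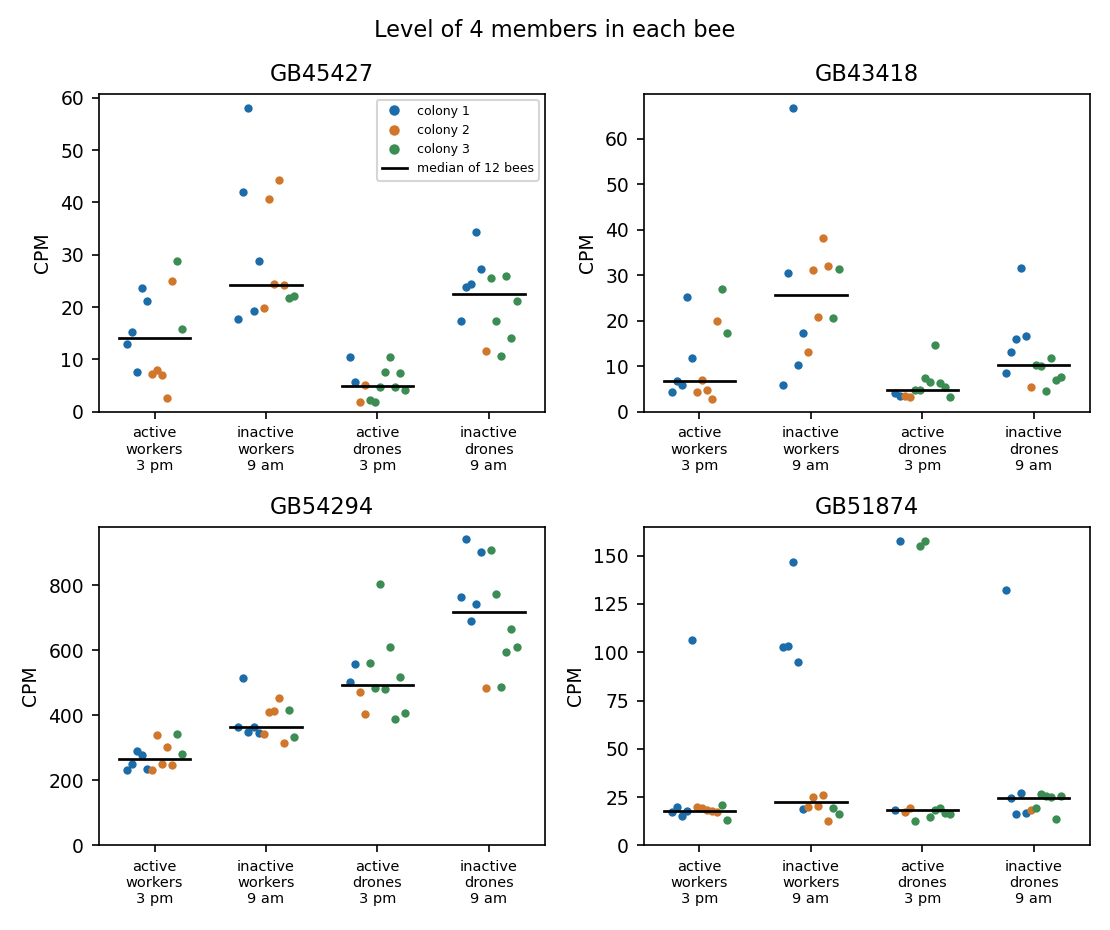
CPM of 4 members in each bee, with points coloured by colony and a line at the median of 12 bees. GB45427 separates active from inactive drones, GB54294 is higher in drones than in workers at both times, and GB51874 has 9 bees far above the others.

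Over the members, a median of 11 of the 12 active bees lay below the median of the inactive bees, in workers and in drones alike. The smallest number was 7 in each sex. All 12 active bees did so for 47 members in workers and for 28 in drones. These counts follow from the rule too, and they were not made over the genes at the floor. Seen from the bees, 81.9% to 96.9% of members were below the inactive median in each active worker and 68.5% to 97.6% in each active drone. Over the genes at the floor these shares were 47.1% to 65.4% and 39.4% to 63.6%. The members' shares follow from the rule that chose them. The drone with the lowest share was active drone 11 of colony 3, and the one with the highest was active drone 5 of the same colony, which also had the largest share of reads outside genes in its group, at 31.8%. Inactive workers spread more widely, from 12.6% of members below their own group's median in inactive worker 3 to 81.9% in inactive worker 4. Both were bees of colony 1. Inactive drones reached 74.0%.

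A negative binomial model of all 48 bees with colony as a covariate (edgeR's quasi-likelihood test, library sizes scaled by TMM, p-values adjusted over 11167 genes) gave the background for each comparison. The rule had used the activity contrasts, so the counts of members below describe them and support nothing. Of the 127 members, 20 were past an adjusted p of 0.05 as lower in active workers, where 0.663% of all genes were, and 20 as lower in active drones, where 1.31% were. Of these, 8 were past it in both sexes, 12 in workers alone and 12 in drones alone, and 95 in neither. Fits without a colony had fewer bees, and the count of members then depended on which colony was left out. In workers the count of members was 2 without colony 1 (32 at an unadjusted p below 0.05), where 0.107% of all genes were called in either direction. It was 2 without colony 2 (65 at an unadjusted p below 0.05), where 0.564% were. In drones edgeR called 0 members without colony 3 (18 at an unadjusted p below 0.05), where 0.00879% of all genes, a single gene, were called. The shares of all genes at an unadjusted p were not taken for these fits. In workers without colony 3 the count was 20 (1.23% of all genes called). In drones it was 19 without colony 1 (3.26%) and 21 without colony 2 (3.87%). In the fit of all 48 bees, 14 genes were lower in both sexes by this test, 6 of them outside the rule. The median fitted log2 change of the members was -0.41 in workers and -0.37 in drones, against -0.01 in each over all genes tested.

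The fitted change was negative in workers for all 127 members and in drones for 125. GB51874 was the clearest exception. Active drones had a median of 18.5 CPM, against 24.7 CPM in the inactive ones, and yet its fitted log2 change was 1.09 ± 0.43 (SE). In 3 active drones the gene stood at 155 CPM or more, against 12.7 to 19.6 CPM in the other 9, and in 1 inactive drone it stood at 132 CPM, against 13.8 to 27.0 CPM in the other 11. GB40624, with a fitted change of 0.09 in drones, was the other exception. It is named, like GB51874, after its values were seen.

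The size of the difference in workers and in drones was compared next. The worker ratio was the lower for 71 members and the drone ratio for 56. GB42570 had the largest gap towards workers, with ratios of 0.413 in workers and 0.793 in drones. It was 0.943 to 31.8 CPM (median 10.1) in active and 3.91 to 41.4 CPM (median 24.5) in inactive workers, and 1.61 to 38.2 CPM (median 23.4) in active and 3.45 to 38.7 CPM (median 29.5) in inactive drones, so both pairs of groups overlapped almost fully. Its fitted log2 change in drones was -0.16, and 0.055 without colony 3. GB43418 followed, with 0.266 and 0.466. GB45427 had the largest gap towards drones, with 0.578 in workers and 0.220 in drones, followed by GB55875, with 0.791 and 0.418.

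GB55875 was 3.10 to 59.2 CPM (median 9.01) in active drones and 12.0 to 54.1 CPM (median 21.6) in inactive drones, and 10 of 12 active drones lay below all inactive ones while the highest active drone exceeded them all. Its fitted log2 change in drones was -0.75, and 0.21 without colony 3. The rule had used both parts of the difference between the responses, so its test is given as a description. By that test 0 of 127 members passed with edgeR, where 0.26% of all genes did. With DESeq2 the count was also 0, where 0.582% of all genes passed. With either tool 4 members had an unadjusted p below 0.05. With edgeR these were 3.15% of the members, against 10.05% of all genes tested; the rule itself asked for ratios on the same side in both sexes. The median difference, worker response minus drone response, was -0.03 on the log2 scale, over a range of -1.77 to 0.79. The lowest value belonged to GB51874 (edgeR adjusted p = 0.256). A difference in size between the sexes was therefore not shown for any single member, which does not show that the responses were of equal size.

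The rule made no use of sex differences, taken here as drones minus workers over morning and afternoon together. Of the 127 members, 62 (48.8%) differed between the sexes, against 45.7% of all genes tested and 49.2% of those at the floor. Drones had the higher level for 26 members (20.5%), against 24.2% of all genes, and workers for 36 (28.3%), against 21.5% of all genes and 25.0% of those at the floor. These shares lie near the background. The median log2 difference, drones minus workers, was -0.08 over the members and 0.04 over all genes tested. Among the called members, 4 (3.15%) were at least 2-fold higher in drones, against 2.34% of the genes at the floor, and 2 (1.57%) were at least 2-fold higher in workers, against 0.744%. Every drone was above every worker for 0 members and for 0.165% of the genes at the floor, and every worker was above every drone for 0 members and for 0.331%. With 127 members, shares this low leave a count of 0 near the background. Without colony 1, which gave 7 of the 24 drones and 10 of the 24 workers, 31 members passed (24.4%, against 28.3% of all genes in that fit).

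GB54294 had the lowest p among members higher in drones. It was 388 to 805 CPM (median 493) in active drones and 484 to 944 CPM (median 716) in inactive drones, against 230.4 to 344 CPM (median 265) in active workers and 314 to 514 CPM (median 365) in inactive workers. The log2 difference was 0.84 ± 0.09 (SE; edgeR adjusted p = 1.22e-10). Active drones all lay above active workers, while inactive drones and inactive workers overlapped. GB44228 was weaker and further apart, at 9.55 to 27.7 CPM (median 13.9) in active and 10.3 to 26.4 CPM (median 19.2) in inactive drones. Active workers had 2.82 to 8.47 CPM (median 5.85) and inactive workers 5.24 to 11.2 CPM (median 8.31), a log2 difference of 1.20 ± 0.13 (edgeR adjusted p = 5.45e-10).

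Among members higher in workers, GB40689 had the lowest p. It was 61.9 to 145 CPM (median 119.6) in active and 89.6 to 191 CPM (median 153) in inactive drones, against 154 to 359 CPM (median 213) in active and 179.5 to 341 CPM (median 299.96) in inactive workers. The log2 difference, drones minus workers, was -0.89 ± 0.13 (SE; edgeR adjusted p = 2.09e-07). GB54267 followed, at -0.63 ± 0.09 (edgeR adjusted p = 2.26e-07). Active drones had a median of 41.0 CPM and active workers one of 59.0 CPM. In the morning, inactive drones had 52.0 CPM and inactive workers 84.4 CPM, and the ranges of the sexes overlapped. GB54294, GB44228, GB40689 and GB54267 stayed past the threshold with the same direction under each alternative run.

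The rule did not use colony labels either, but its drone medians came from colonies in unequal numbers. Colony 1 gave 2 active and 5 inactive drones, and colony 3 gave 8 and 6. A gene that differs between colonies can thus get a low drone ratio apart from activity. The colony count is therefore not independent of the choice of members. A joint test of both colony coefficients, with the 4 groups as covariate, called 5 of the 127 members (3.94%), against 2.59% of all genes. An unadjusted p below 0.05 was found for 14 members, and the share of all genes at that p was not taken. GB47506 had the lowest p (edgeR adjusted p = 0.0129). Its median was 9.74 CPM in the 17 bees of colony 1, 5.12 CPM in the 13 of colony 2 and 5.05 CPM in the 18 of colony 3. The gap was wider among drones, with 12.2, 5.30 and 4.94 CPM, than among workers, with 7.43, 5.11 and 7.24 CPM. GB40520 was highest in colony 2 (edgeR adjusted p = 0.0185). Drones of colonies 1, 2 and 3 had medians of 46.8, 52.9 and 27.2 CPM, and workers of the same colonies 16.9, 35.5 and 13.7 CPM.

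The other 3 members, named after their values were seen, had their highest median over all bees in colony 1. GB53545 had medians of 20.7, 8.59 and 4.13 CPM among drones of colonies 1, 2 and 3. Among workers, where colony 3 was the highest, they were 5.55, 3.73 and 6.75 CPM. For GB41773 the drone medians were 51.8, 38.5 and 35.8 CPM, and the worker medians 66.4, 26.5 and 30.2 CPM. The call of GB41773 (edgeR adjusted p = 0.0462) was lost with RLE size factors (0.0508) and with pool as a covariate (0.0691). GB51874, the last of them, had 2 separate levels among single bees. Within the morning bees alone 0 members passed with edgeR (7 at an unadjusted p below 0.05), where 0.0567% of all genes did. Within the afternoon bees alone 0 passed (19 at an unadjusted p below 0.05), where 0.225% of all genes did. The tests of 24 bees thus called few genes of any kind. The shares of all genes at an unadjusted p were not taken for these tests.

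In 39 bees GB51874 lay between 12.7 and 27.0 CPM and in the other 9 between 95.2 and 158 CPM, with no bee between. The high bees were 1 active and 4 inactive workers, and 3 active drones and 1 inactive drone. Of them 7 came from colony 1, 2 were active drones of colony 3, and 0 of the 13 bees of colony 2 were high. Among members, 1 of 127 (0.787%) had such a gap of at least 1 log2 unit with 3 or more bees on each side, against 43 (0.508%) of the genes at the floor.

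Taken colony by colony, the members were lower in active bees in most strata, which again follows in part from their choice. In workers, 122 of 127 (96.1%) had a ratio below 1 in colony 1, 124 (97.6%) in colony 2 and 100 (78.7%) in colony 3. In drones these counts were 105 (82.7%), 101 (79.5%) and 122 (96.1%). Over the genes at the floor the shares were 48.5%, 57.1% and 67.4% in workers and 61.3%, 57.0% and 48.2% in drones. The ratio was below 1 in all 6 strata for 64 members, in 5 for 44, in 4 for 13 and in 3 for 6. The number of strata below 1 was not counted for the genes at the floor.

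The rule was also applied to 2 colonies at a time, and the genes it chose were then read in the colony left out. The chosen genes were only in part members: 66 of the 136 without colony 1, 97 of the 169 without colony 2 and 58 of the 269 without colony 3. In workers the chosen genes were mostly lower in active bees again. Of 136 genes chosen without colony 1, 91.2% were below 1 in its workers, against 47.9% of the other genes, with a median ratio of 0.723 against 1.01. Of 169 chosen without colony 2, 85.8% were below 1 in its workers, against 56.5%, with medians of 0.807 and 0.976. Of 269 chosen without colony 3, 90.3% were below 1 in its workers, against 66.7%, with medians of 0.649 and 0.918, from 2 active and 2 inactive bees.

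In drones the shares below 1 and the shares at or below the limit of 0.8 did not point the same way in every colony. In colony 1 drones (2 active and 5 inactive) 66.2% were below 1, against 61.2% of the other genes, with median ratios of 0.906 and 0.950. In colony 2 drones (2 active and 1 inactive) 65.7% were, against 56.8%, with medians of 0.912 and 0.968. In colony 3 drones, with 8 active and 6 inactive bees the best filled of the drone strata, 34.6% were below 1, against 48.7%, and the median ratio was 1.09 against 1.01. Leaving out colony 3 also leaves only 4 active and 6 inactive drones to choose from, and 58 of the 269 genes were among the 127 members. In the held-out drones of colony 3 fewer of the chosen genes than of the others were thus lower in active bees. The share with a ratio of at most 0.8 was above that of the other genes in all 3 colonies, at 33.8% against 17.7% in colony 1 drones, 34.9% against 16.2% in colony 2 drones and 16.7% against 10.7% in colony 3 drones. In workers of colonies 1, 2 and 3 it was 66.2%, 46.2% and 77.7%, against 11.7%, 14.6% and 26.2% of the other genes. No test was made of these shares or of their difference between the sexes.

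**Figure D4:**
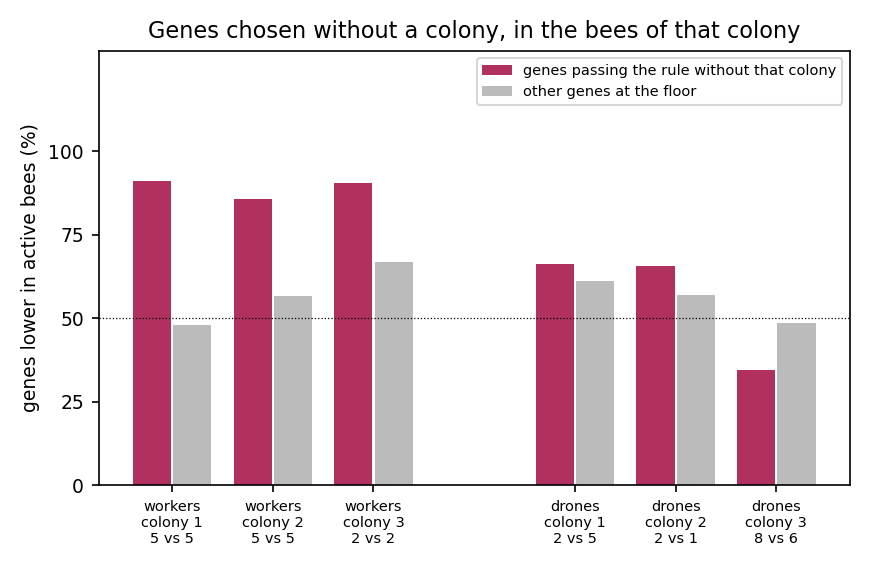
Share of genes, in percent, with a lower median in active than in inactive bees of a colony that was left out when the rule was applied (coloured bars), beside the other genes at the floor (grey bars); the numbers of active and inactive bees stand under each pair. The coloured bars are 85.8% to 91.2% in workers, and 66.2%, 65.7% and 34.6% in drones of colonies 1, 2 and 3.

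Within groups the members did not move as 1 unit. After the group mean was removed from log2(CPM + 1), the median Pearson r over pairs of members was 0.109 across 48 bees, against 0.0267 over pairs of genes at the floor, and 18.7% of pairs were above 0.5, against 12.3%. Within single groups of 12 bees the median r was 0.142 in active workers, against 0.0366 over the genes at the floor, and 0.242 in inactive workers, against 0.0494. In active drones it was 0.203, against 0.0425. In inactive drones it was 0.00884 and lay below the 0.0544 of the genes at the floor, unlike the other 3 groups. All genes of a bee share its library, so these values are descriptions.

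Average linkage at r of at least 0.5 placed 86 members in 6 blocks of 3 or more and left 41 outside. The first block held 49 members, with a median r of 0.716 and a median level of 12.0 CPM. Its mean deviation followed the main axis of the 8340 genes that are not members, at r of 0.940 (Pearson) and rho of 0.915 (Spearman) over 48 bees, and 0.919 without the 2 bees farthest out. That axis held 28.8% of the variance of those genes. It correlated at r above 0.5 with 40.2% of the members and 37.8% of the other genes, so following it was not particular to the members. The first block also moved against the share of reads taken by the 100 strongest genes (r of -0.68). The part of this axis in the lower level of these members was not tested.

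Other genes that followed the axis at r above 0.5, 3150 in number, had a median ratio of 0.906 in workers, and 22.8% of them had a ratio of at most 0.8. In drones their median ratio was 0.979 and 1.37% were at most 0.8. For genes with r between -0.5 and 0.5 the medians were 1.02 in workers and 0.984 in drones. Of these genes 4.09% were at most 0.8 in workers and 5.51% in drones.

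The second block held 13 members with a median level of 218 CPM and a median r of 0.656, and was lowest in active drone 5. The third held 12 members with a median r of 0.605 and was highest in inactive worker 3, at 2.57 SD above its group. Without inactive worker 3, 11 of the 12 still had a worker ratio of at most 0.8, as did 43 of 49 in the first block and 1 of 3 in the fifth. The fifth held GB43437 and GB50137, the members with the highest median r with the other members, at 0.38 and 0.33. The fourth held 6 members, GB43418 and GB45427 among them, with median ratios of 0.566 in workers and 0.603 in drones. Over 48 bees, r with the share of reads outside genes was 0.44, -0.62, -0.25 and -0.51 for blocks 1 to 4. With the axis of the other genes it was -0.59, -0.20 and -0.28 for blocks 2 to 4. The mean share of reads outside genes was higher in active bees of both sexes, with overlapping ranges. The part of these measures in the lower level of the members was not tested.

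**Figure D5:**
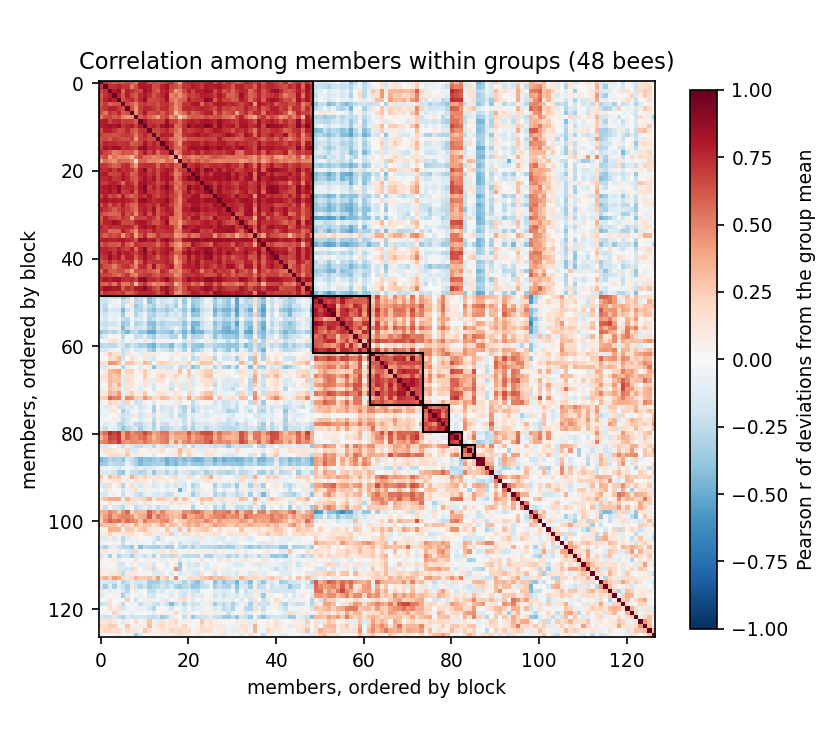
Pearson r between each pair of the 127 members, from deviations of log2(CPM + 1) from the group mean in 48 bees, with members ordered by block. The first block of 49 members, with a median r of 0.716, is the largest, and 41 members lie outside any block of 3 or more.

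Single bees varied more for members than for the genes they were drawn from, which were also stronger on the whole. The median coefficient of variation of members was 25.5% in active and 33.1% in inactive workers, and 26.2% in active and 31.4% in inactive drones. Over the genes at the floor it was 17.9% and 21.5% in active and inactive workers, and 18.4% and 22.1% in active and inactive drones. It was lower in active bees for 94 members in workers and 84 in drones, and for 70.8% and 66.7% of the genes at the floor.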

How the data were processed

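The deposited files hold whole-number counts of reads per gene, 1 file per bee, which the authors made; the submitters' processing notes list HTSeq 0.5.4 and TopHat2 2.0.10, and also edgeR 3.4.2, SAMtools, Trimmomatic 0.30 and CASAVA 1.8.2, with no role for each. The labels' protocols name a directional kit; the sources used here give no counting mode, strand setting or genome build, so overlapping genes and close copies may share reads. The 5 summary rows per file were left out of library sizes.

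CPM used the plain sum of gene counts. Tests used edgeR 4.0.16 in R 4.3.3 (quasi-likelihood, TMM, filterByExpr, 1 coefficient per group, colony as covariate, all 48 libraries), with Benjamini-Hochberg adjustment over 11167 genes and a threshold of 0.05, after a trial on simulated data. DESeq2 1.42.0 was an alternative, beside other scaling, filters, covariates, left-out bees and colonies. Other summaries used Python 3.11.15. Each bee is 1 library, and gene reads, in units of 1000000, ran from 6.69 to 27.1. Bees with the same replicate number were not paired: of 72 pairs, 26 had a correlation of deviations above 0.1 (range -0.56 to 0.70).

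Members and lists were chosen with earlier results of these data known. Named members were those with the lowest mean log2 ratio, the largest gap between the sexes, the highest level, the lowest p for sex and colony and those next to the limit; others are marked in the text. None of the 15314 identifiers matched the reference table, so gene lists and markers were not used here.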

Additional observations from a re-analysis of the deposited data

How the results depend on the processing

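Membership depended on the limit and the scale. A ratio limit of 0.75 gave 52 genes, a limit of 0.85 gave 325, a floor of 10 CPM gave 65, and the rule without colony 3 gave 269, of which 58 were members. TMM scaling left 86 genes (74 of them members), RLE scaling, chosen after seeing the data, 91 (71), and means in place of medians 123 (73). Leaving out 1 bee at a time gave 115 to 182 genes, and 74 members stayed in all 48 cases. With TMM the median ratio was 0.755 in workers and 0.760 in drones, and all 127 members stayed below 1.

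Members past the threshold in workers numbered 20 (2.31% of all genes were called in either direction). They numbered 11 with pool as a covariate (1.08%), 2 without colony 1 (0.107%), 2 without colony 2 (0.564%) and 32 with DESeq2 (3.396%). In these settings the calls over all genes moved the same way. In drones the 20 became 0 without colony 3 (edgeR; 18 at an unadjusted p below 0.05; 0.00879% of all genes called; DESeq2 was run on all bees only). The drone count was 19 without colony 1 (3.26%) and 21 without colony 2 (3.87%). The worker count stayed at 20 without colony 3 (1.23%). The sex count of 62 became 31 without colony 1 (28.3% of all genes, against 45.7%). The colony count of 5 (2.59% of all genes) became 0 in the morning bees (0.0567%), 0 in the afternoon bees (0.225%) and 0 with a replicate block (16 at an unadjusted p below 0.05; 0.0179% of all genes), where hardly any gene was called. For the counts at an unadjusted p the shares of all genes were not taken. The replicate block left 51 members for sex, 19 for workers, 14 for drones and 0 for the difference in response. The replicate numbers do not pair the bees.

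Changes of sign were looked for in named members only. For active against inactive bees these were GB43418, GB45427, GB42570, GB55875, GB47118, GB51897 and GB50828. For the difference in response they were GB42570, GB43418, GB45427 and GB55875. Among them, the fitted log2 changes that turned round were GB42570 in drones (0.0094 with pool, 0.055 without colony 3), GB51897 in drones (0.065 without colony 3) and GB55875 in drones (0.21 without colony 3). The difference in response turned round for GB43418 (0.24 without colony 2, 0.49 without colony 3) and GB55875 (-0.17 without colony 2, -0.73 without colony 3). The cause was not tested. How depth limits the weak members was not tested.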
